A study of Mus musculus with 4 samples.

Results

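ABC transporters are membrane proteins that spend ATP to carry substrates across a membrane, and their genes were followed here in CT26 cells, a mouse colon carcinoma line, with and without iRhom1. The members were the rows whose symbol is ABC, a letter from A to G, a number and at most 1 further letter, and 33 of the 21677 gene symbols of the table met this rule. RNA was sequenced from 2 Control libraries (S17 and S19), with the genotype given as Control, and from 2 libraries of iRhom KO cells (S18 and S20), in which the iRhom1 gene Rhbdf1 was targeted by CRISPR. All cells were grown in the same medium and received no treatment after the knockout. The KO cells carried a lentiviral CRISPR vector with puromycin resistance and were grown from a single clone, so a difference between the groups cannot be told apart from a difference between this clone and the Control cells. The labels and the study's RNA-seq methods give the comparator only as control, while a figure legend on the RNA-seq comparison calls it WT. The study also had a separate vector line without a guide.

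Members of the family share paired ATP-binding domains and are sorted by letter. Several C members and G2 export drugs, drug conjugates and cyclic nucleotides, and with the B1 pump they are known for resistance of tumours to chemotherapy. The A members and G1 mostly move lipids and sterols, half-transporters of the B and D groups sit in mitochondria, lysosomes and peroxisomes, and the E and F members carry ATP-binding domains without a membrane part and act at the ribosome. The study asked how loss of iRhom1 alters sensitivity to doxorubicin and to a camptothecin and vorinostat conjugate, which is the setting in which these pumps are of interest.

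Values are FPKM, fragments per kilobase of transcript scaled to the fragments of the library, as the authors made them. Depth, estimated from the steps between low values of genes with 1 annotated transcript, was 50000000 to 53800000 fragments per library. The listed FPKM of Rhbdf1 equal those of Apobec2, an unrelated gene named after its values were seen, in 3 of 4 libraries (0.538, 0.890 and 0.0584 FPKM in S17, S19 and S20), so they gave no check of the knockout. Of 10 epithelial markers 6 had a row, and their summed level was at most 20.1 FPKM in Control and 36.9 to 38.2 FPKM in iRhom KO, where Krt8 stood at 6.80 and 7.03 FPKM beside 0.0278 and 0 FPKM in Control. The keratin Krt20 was listed at 10.2 FPKM or more in each library, while Epcam, Cdh1, Krt19 and Lgals4 are without a row in this table. Krt18 was at 8.58 and 9.39 FPKM in Control and 17.4 and 18.3 FPKM in iRhom KO. The epithelial markers Cdx2, Cdh17 and Vil1 were low, reaching at most 0.270, 0.153 and 0.0163 FPKM in any library. Ptprc of the leukocyte markers (at most 0.00630 FPKM) and Pecam1 of the endothelial markers (at most 0.00505 FPKM) were near 0 in each library. Summed over the 3 endothelial markers with a row, Pecam1, Tek and Vwf, the level was 2.93 to 3.07 FPKM in Control and 0.0490 to 0.0786 FPKM in iRhom KO. Most of this sum was Vwf, with a mean of 2.98 FPKM in Control and 0.0543 FPKM in iRhom KO. The 4 leukocyte markers with a row, Ptprc, Lyz2, Csf1r and Cd68, summed to 5.21 to 5.38 FPKM in Control and 2.26 to 2.92 FPKM in iRhom KO. Among them Cd68 fell from a mean of 3.36 to 0.754 FPKM, while Lyz2 averaged 1.92 FPKM in Control and 1.825 FPKM in iRhom KO. The 4 of fibroblasts, Col1a1, Col1a2, Pdgfra and Dcn, summed to 39.0 to 42.5 FPKM in Control and 52.4 to 57.6 FPKM in iRhom KO. No marker with a row was at 0 in every library, but no symbol at all was listed at 0 throughout a group, so this gave no check. The part of these marker shifts in the results on ABC genes was not tested.

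At a mean of 1 FPKM or more, 16 of the 33 members were expressed in Control and 17 in iRhom KO. Genes at this level in at least 1 group were tested, which took in 51.5% of the members beside 47.4% of all gene symbols. Abce1, the ATPase that splits ribosomes after translation, stood highest in each group, at 109.9 FPKM in Control and 91.7 FPKM in iRhom KO. Abcf1, which acts in translation initiation, followed at 37.0 and 22.7 FPKM, and the mitochondrial Abcb10 was the 4th in each group at 10.8 and 10.0 FPKM. The drug pump Abcc4 was the 5th in this order in Control and the 9th in iRhom KO. In Control its libraries overlapped with those of Abcf3, the next lower member, and in iRhom KO with those of Abca1. All other neighbours in the order from Abce1 down to Abca5 lay apart.

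**Figure D1:**
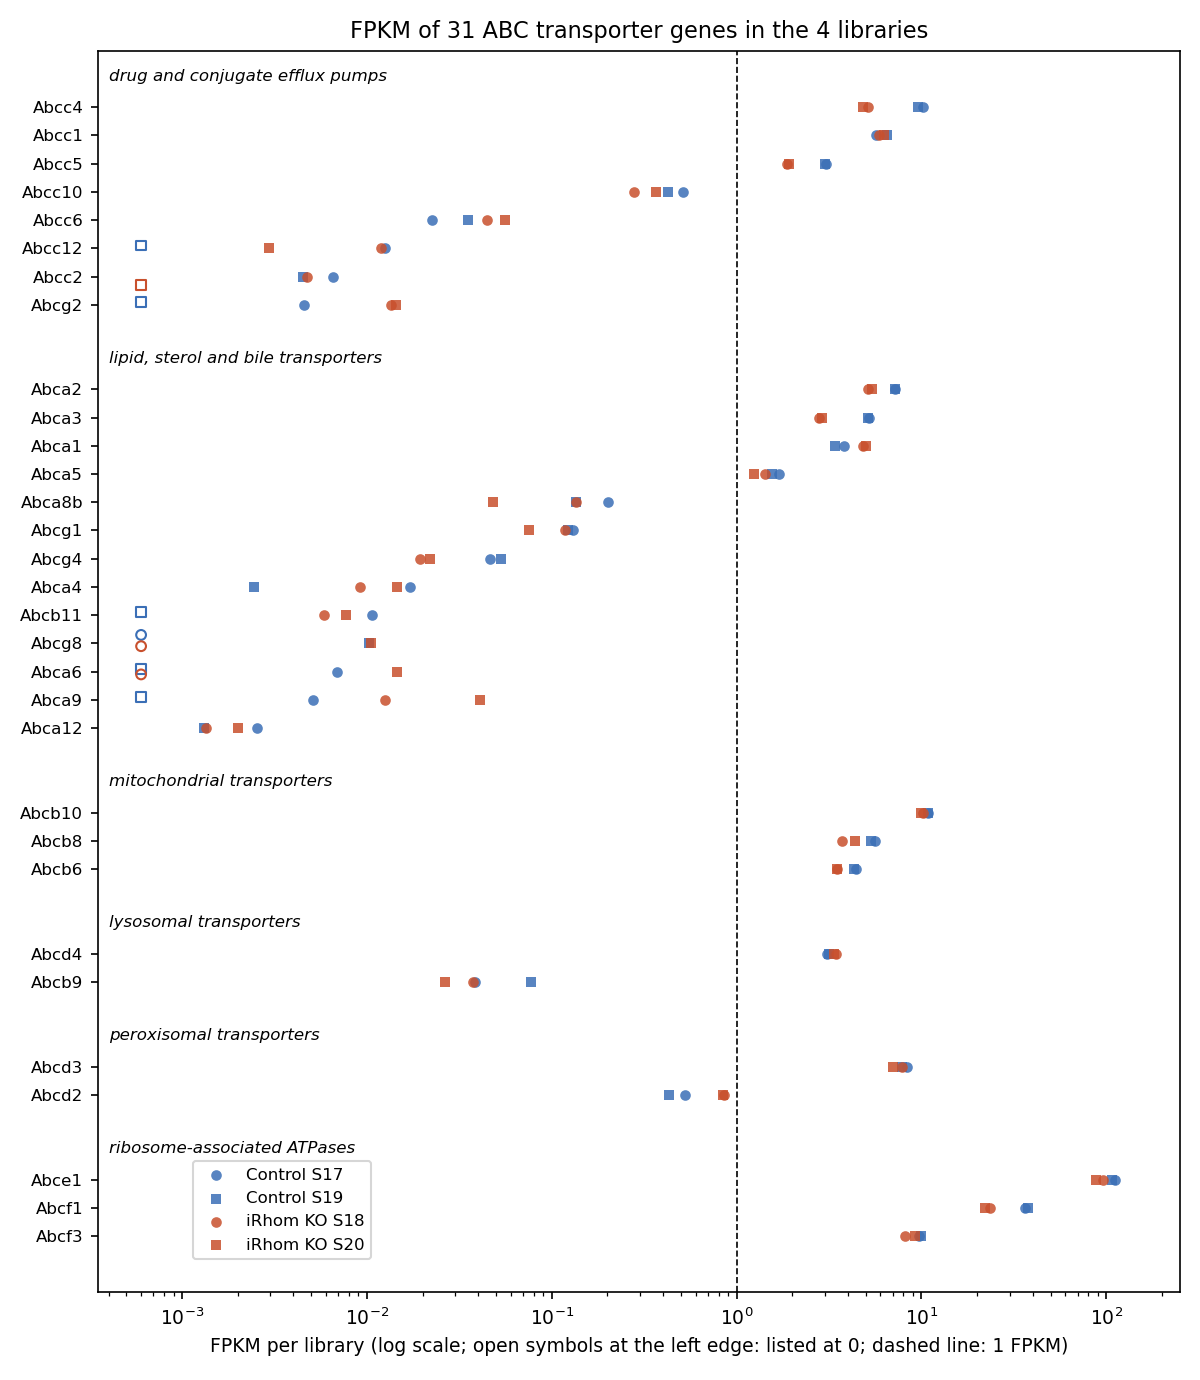
FPKM (horizontal log axis) of 31 of the 33 ABC genes in the 4 libraries, grouped by role, with blue symbols for Control, red symbols for iRhom KO and open symbols at the left edge for values listed at 0. The dashed line marks 1 FPKM, and Abcc4, Abcc5, Abca3 and Abcf1 show iRhom KO symbols clear to the left of Control.

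Of the 17 members tested, 7 were lower and 2 higher in iRhom KO cells, taking adjusted p-values under 0.05 as calls (limma on log2 of FPKM plus 0.5, Benjamini-Hochberg over all 10271 genes tested). Among all genes tested 21.9% were called lower and 10.7% higher, so that the members called lower were 41.2% of those tested and the members called higher 11.8%, the latter close to the background. Seen per library, 12 members lay lower in both iRhom KO libraries than in either Control library and 3 higher, beside 46.1% and 25.9% of all genes tested. The median log2 fold change of the members was -0.23, that of all genes tested -0.10, and no member differed by more than 2-fold on this scale. With trimmed mean scaling between libraries 5 members were lower and 2 higher, and with quantile normalization 4 and 2. Of all genes tested 16.5% were lower and 16% higher with the first scaling, and 15.1% and 15.6% with the second. Under both, the members called higher made up a smaller share than all genes and those called lower a larger one. With each chromosome's median log2 level subtracted in each library, added after the data were seen, 2 of the 17 members were lower and 2 higher. Of the 10271 genes, 1140 were then lower and 1580 higher, so the share of members called lower was close to that of all genes. In bulk RNA, fewer cells with a transcript and less transcript per cell cannot be told apart. The RNA-seq data are described as representative of independent experiments, but which library came from which experiment or culture is not given, and the p-values rest on the spread among these libraries alone, which may be technical.

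**Figure D2:**
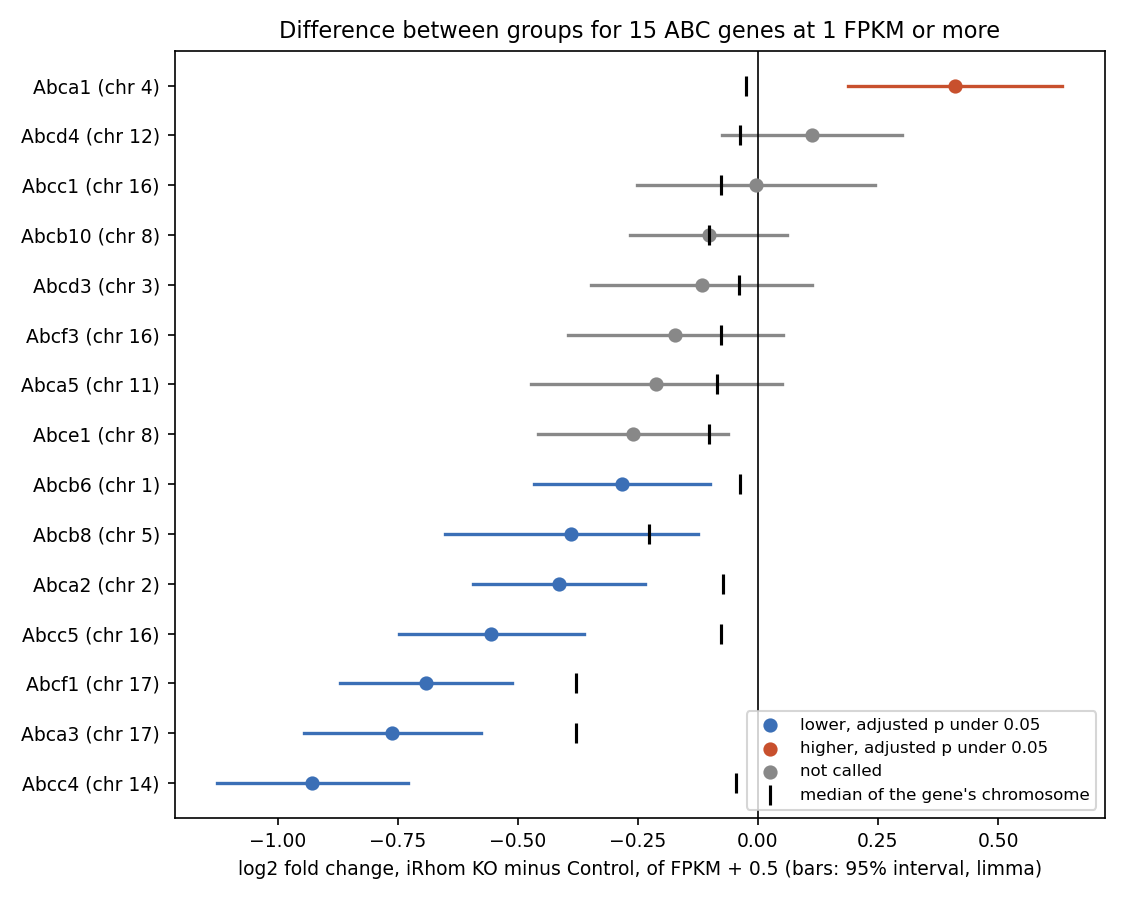
Log2 fold change of iRhom KO over Control (horizontal axis, FPKM plus 0.5) for 15 of the 17 tested ABC genes, with 95% intervals from limma, colours for the call and black ticks for the median of all tested genes on the same chromosome. Abcc4 lies farthest to the left at -0.93, Abca1 lies farthest to the right at 0.41, and the ticks of Abca3 and Abcf1 on chromosome 17 stand at -0.38.

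Among the efflux pumps for drugs and conjugates, Abcc4 and Abcc5 fell and Abcc1 was not called. Abcc4 (chromosome 14 of GRCm38, 118482692 to 118706219, minus strand, 31 exons), the pump MRP4 that exports cyclic nucleotides, prostaglandins and nucleotide analogues, was at 10.2 and 9.61 FPKM in the Control libraries and 5.13 and 4.81 FPKM in the iRhom KO libraries. Both iRhom KO values lay far below both Control values. The mean fell from 9.91 ± 0.414 to 4.97 ± 0.231 FPKM (SD, n = 2 each), to 50.2% of Control, with a log2 fold change of -0.93 (at a standard error of 0.0740, limma adjusted p = 0.00554). The median of chromosome 14 was -0.05, and that of the 14 tested genes within 5 Mb of Abcc4 was 0.05. The call was kept with each library left out, with log2 fold changes of -0.97 to -0.88, as were those of Abcc5, Abca3 and Abcf1.

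Abcc5 (chromosome 16, 20331303 to 20426394, minus strand), MRP5, a related exporter of cyclic nucleotides and nucleotide analogues, was at 3.05 and 3.02 FPKM in Control and 1.88 and 1.93 FPKM in iRhom KO. The libraries within each group were close together and the groups did not overlap. The mean fell by 37.2% (log2 fold change -0.55, with a standard error of 0.0715, limma adjusted p = 0.0110), beside a median of -0.08 for chromosome 16. Abcf3, a cytosolic ATPase gene 122.2 kb away on the same chromosome, was at 9.77 and 9.91 FPKM in Control and 8.16 and 9.22 FPKM in iRhom KO, with a log2 fold change of -0.17 (limma adjusted p = 0.180).

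Abcc1, MRP1, which exports glutathione conjugates and anthracyclines such as doxorubicin, was at 5.71 and 6.51 FPKM in Control and 5.86 and 6.30 FPKM in iRhom KO. The iRhom KO values lay between those of Control. Its log2 fold change was -0.0045 with a 95% interval of -0.25 to 0.24 (limma adjusted p = 0.974), and the sign turned with either scaling between libraries and without S19 or S18. Of the summed FPKM of the 8 pump genes with a row, Abcc4 made up 52.3% and 49.1% in the Control libraries and 38.8% and 35.7% in the iRhom KO libraries. Abcc1 made up 29.3% and 33.2% in Control and 44.3% and 46.8% in iRhom KO. The sum itself was 19.5 and 19.6 FPKM in Control and 13.2 and 13.5 FPKM in iRhom KO, a description that was not tested.

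The other pump genes were low. Abcc10, an exporter of taxanes, was at 0.511 and 0.423 FPKM in Control and 0.279 and 0.366 FPKM in iRhom KO, below the level required for testing. Abcg2, the pump BCRP that exports camptothecins such as topotecan, was at 0.00459 and 0 FPKM in Control and 0.0135 and 0.0144 FPKM in iRhom KO. Over its longest annotated transcript, 0.0144 FPKM in S20 corresponds to an estimated 4.20 fragments, so its level could not be compared at this depth. Abcc2 (0 to 0.00659 FPKM) and Abcc12 (0 to 0.0125 FPKM) were as low, and Abcc6 was somewhat higher, at 0.0226 and 0.0354 FPKM in Control and 0.0448 and 0.0561 FPKM in iRhom KO. Abcb1a and Abcb1b, which encode the pump P-glycoprotein in mouse, and Abcb5 and Abcc3 are without a row and were not analysed here.

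Of the lipid transporters, Abca3 and Abca2 fell and Abca1 rose. Abca3 (chromosome 17, 24351950 to 24410201, plus strand), known for loading phospholipid into the lamellar bodies of lung cells, was at 5.23 and 5.11 FPKM in Control and 2.80 and 2.89 FPKM in iRhom KO. The groups were well apart, with a log2 fold change of -0.76 (at a standard error of 0.0683, limma adjusted p = 0.00649). The median of the 487 tested genes of chromosome 17 was -0.38 and that of the 118 tested genes within 5 Mb was -0.41. The median log2 level of each chromosome's tested genes was also subtracted in each library, which was tried only once the data had been seen. With these medians subtracted, Abca3 was at -0.29 and was not called (limma adjusted p = 0.0670). They are medians of level and not the median log2 fold change of -0.38, which taken off leaves Abca3 at -0.38. Abca2 (chromosome 2, 25428703 to 25448540, plus strand), a transporter of endosomes and lysosomes, was at 7.24 and 7.20 FPKM in Control and 5.17 and 5.42 FPKM in iRhom KO. Its groups did not overlap, and the log2 fold change was -0.41 (limma adjusted p = 0.0171). The call was lost without S17 or S19 (limma adjusted p = 0.0757 and 0.0733), with quantile normalization (adjusted p = 0.0512) and with chromosome medians subtracted (adjusted p = 0.0537).

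Abca1 (chromosome 4, 53030787 to 53159895, minus strand), which hands cholesterol and phospholipid to apolipoprotein A-I, was at 3.80 and 3.39 FPKM in Control and 4.85 and 5.03 FPKM in iRhom KO. Each iRhom KO library stood above each Control library. The mean rose by 37.4% (log2 fold change 0.41, with a standard error of 0.0830, limma adjusted p = 0.0277). The median of the 26 tested genes within 5 Mb was 0.16, and that of chromosome 4 was -0.03. The call was lost with any 1 of the 4 libraries left out, with log2 fold changes of 0.34 to 0.48 and adjusted p of 0.0516 without S17, 0.125 without S19, 0.0733 without S18 and 0.0949 without S20, and without the filter on low values (limma adjusted p = 0.0586). Abca5, a lysosomal relative, was at 1.70 and 1.55 FPKM in Control and 1.43 and 1.24 FPKM in iRhom KO, and was not called (log2 fold change -0.21, limma adjusted p = 0.163).

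The remaining lipid and bile transporters were under 1 FPKM. None of the 16 untested members was called by limma without the filter, and 1 had an unadjusted p under 0.05. Of all 21677 genes in that limma fit, 895 were called higher and 1582 lower, and 6350 had an unadjusted p under 0.05. That background takes in genes at every level, while the 16 members were all under 1 FPKM in each group. Abcg1, which passes cholesterol to lipoproteins and is often described together with Abca1, was at 0.130 and 0.122 FPKM in Control and 0.118 and 0.0754 FPKM in iRhom KO. Abca8b ranged from 0.0483 to 0.202 FPKM, with the highest value in Control and the lowest in iRhom KO and the other libraries almost equal. Abcg4 was at 0.0465 and 0.0535 FPKM in Control and 0.0193 and 0.0221 FPKM in iRhom KO, so the groups lay apart at a level of an estimated 10.0 fragments in S17 and 4.48 in S20. Abca5, Abca6, Abca9 and Abca8b lie in 1 cluster on chromosome 11 with gaps of 8.6 to 104.9 kb between successive members that have a row. Only Abca5 of these 4 reached 1 FPKM, and Abca8a is without a row. Abca4, Abca6, Abca9, Abca12, Abcb11 and Abcg8 reached at most 0.0410 FPKM in any library.

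Of the mitochondrial members, Abcb8 and Abcb6 fell and Abcb10 was not called. Abcb8 (chromosome 5, 24393663 to 24410054, plus strand), which acts in mitochondrial iron handling, was at 5.58 and 5.32 FPKM in Control and 3.73 and 4.38 FPKM in iRhom KO. The log2 fold change was -0.39 (at a standard error of 0.0982, limma adjusted p = 0.0458), beside a median of -0.23 for chromosome 5. Abcb6 (chromosome 1, 75171717 to 75180392, minus strand), a porphyrin transporter, was at 4.45 and 4.30 FPKM in Control and 3.51 and 3.50 FPKM in iRhom KO, with a log2 fold change of -0.28 (at a standard error of 0.0679, limma adjusted p = 0.0405). The groups did not overlap for either gene, but neither call was firm. Abcb6 was not called with any 1 library left out (adjusted p = 0.217 without S17, 0.159 without S19, 0.0779 without S18 and 0.0885 without S20 from limma), and of these fits Abcb8 was called only in that without S20 (adjusted p = 0.142 without S17, 0.0969 without S19 and 0.0819 without S18). Both calls were also lost with either scaling between libraries, with chromosome medians subtracted and without the filter on low values.

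Abcb10, which acts in heme synthesis, was at 10.8 FPKM in each Control library and at 10.1 and 9.92 FPKM in iRhom KO, with a log2 fold change of -0.10 beside a median of -0.10 for chromosome 8 (limma adjusted p = 0.255) and of 0.02 with quantile normalization. The groups did not overlap for this gene either, as for 72% of all genes tested.

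Of the peroxisomal members described here, Abcd2 was just below the level for testing and Abcd3 was not called. Abcd2, which brings very long chain fatty acids into the peroxisome, was at 0.524 and 0.428 FPKM in Control and 0.855 and 0.840 FPKM in iRhom KO. Each iRhom KO library stood above each Control library, and in the fit without a filter its log2 fold change was 0.47 (limma adjusted p = 0.0625). Abcd3, the most abundant peroxisomal member, was at 8.33 and 7.85 FPKM in Control and 7.86 and 7.0 FPKM in iRhom KO, with overlapping groups (log2 fold change -0.12, limma adjusted p = 0.340). Abcd4, a lysosomal transporter of cobalamin, was at 3.07 and 3.14 FPKM in Control and 3.44 and 3.36 FPKM in iRhom KO (log2 fold change 0.11, limma adjusted p = 0.268). Abcb9, a lysosomal peptide transporter, reached at most 0.0768 FPKM.

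Among the ribosome-associated ATPases, Abcf1 fell. Abcf1 (chromosome 17, 35956819 to 35969761, minus strand), which binds the initiation factor eIF2 and ribosomes, was at 36.2 and 37.8 FPKM in Control and 23.4 and 22.1 FPKM in iRhom KO. The groups were far apart and the mean fell by 38.6% (log2 fold change -0.69, with a standard error of 0.0666, limma adjusted p = 0.00720). The median of the 111 tested genes within 5 Mb was -0.34. With chromosome medians of level subtracted, Abcf1 was at -0.22 and was not called (limma adjusted p = 0.0564). Its log2 fold change less the median log2 fold change of chromosome 17 was -0.31. Abce1 (chromosome 8) was at 112.2 and 107.5 FPKM in Control and 95.9 and 87.6 FPKM in iRhom KO. Both iRhom KO values lay below both Control values, but the difference did not pass the adjustment (log2 fold change -0.26, 95% interval -0.46 to -0.06, limma adjusted p = 0.0592). Abcf2 is without a row and was not analysed here.

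**Figure D3:**
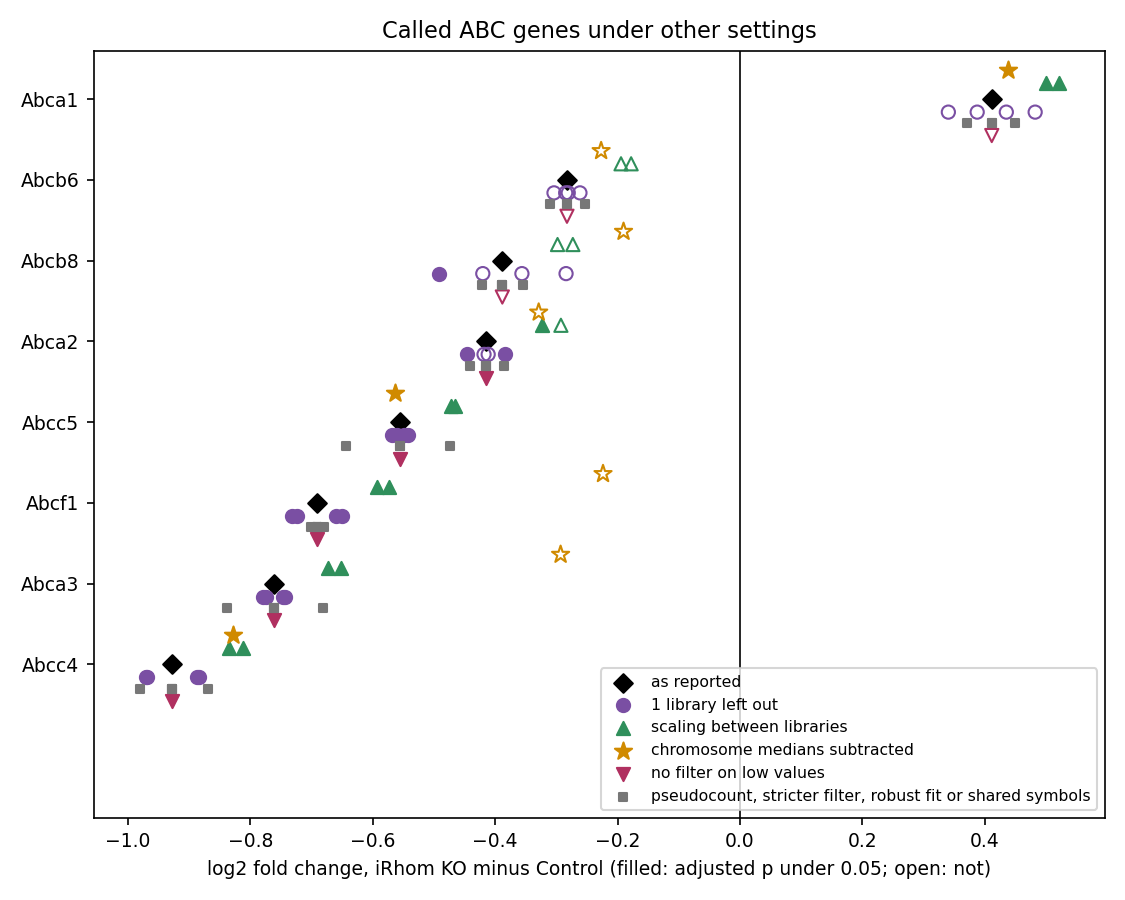
Log2 fold change (horizontal axis) of 8 of the 9 called ABC genes as reported and under each alternative setting except a minimum fold change, filled where the adjusted p was under 0.05. Abcc4 and Abcc5 are filled at each setting in which they were tested, and Abca1 is open with any 1 library left out. Abca3 and Abcf1 turn open and move towards 0 with each chromosome's median log2 level subtracted.

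Tap1, Tap2 and Cftr encode ABC proteins whose symbols do not follow the pattern. Tap1 and Tap2 form the transporter that feeds peptides to MHC class I and lie on chromosome 17. Tap1 was at 3.52 and 3.63 FPKM in Control and 5.23 and 6.44 FPKM in iRhom KO. It rose by a log2 fold change of 0.63 (at a standard error of 0.115, limma adjusted p = 0.0224) on the same chromosome as Abca3 and Abcf1, whose median was -0.38. These values are of RNA. The study reports higher RNA of several antigen-processing genes in iRhom1 KO cells, but a significant rise in protein for ERAP1 only. Tap2 was at 7.89 and 7.56 FPKM in Control and 8.24 and 7.67 FPKM in iRhom KO (log2 fold change 0.04, limma adjusted p = 0.699). The chloride channel gene Cftr was at most 0.00723 FPKM.

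The stretches of 250 bases before the start site are shown for Abcc4, Abcc5 and Abcf1, called lower, and for Abca1, called higher, since these members moved in opposite directions. They are from RefSeq on GRCm38.p6 and read 5′ to 3′ on the strand of the gene. Capitals mark the E-box CACGTG, the GC box GGGCGG and the CCAAT box, each on either strand.
Abcc4, chr14:118706220-118706469, minus strand: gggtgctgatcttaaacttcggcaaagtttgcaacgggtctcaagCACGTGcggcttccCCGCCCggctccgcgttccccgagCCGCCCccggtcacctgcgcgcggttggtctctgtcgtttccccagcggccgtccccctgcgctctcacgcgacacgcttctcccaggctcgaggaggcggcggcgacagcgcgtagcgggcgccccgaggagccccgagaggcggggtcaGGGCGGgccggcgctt
Abcc5, chr16:20426395-20426644, minus strand: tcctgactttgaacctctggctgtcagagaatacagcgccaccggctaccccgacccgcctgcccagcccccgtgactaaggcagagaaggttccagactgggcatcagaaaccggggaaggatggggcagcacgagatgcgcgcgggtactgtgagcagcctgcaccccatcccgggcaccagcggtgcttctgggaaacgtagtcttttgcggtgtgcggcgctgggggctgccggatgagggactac
Abcf1, chr17:35969751-35970000, minus strand: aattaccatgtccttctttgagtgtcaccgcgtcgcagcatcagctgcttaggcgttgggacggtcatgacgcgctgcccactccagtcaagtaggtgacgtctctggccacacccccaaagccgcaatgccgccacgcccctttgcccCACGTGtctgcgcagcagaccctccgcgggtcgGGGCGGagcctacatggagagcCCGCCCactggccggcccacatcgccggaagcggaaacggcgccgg
Abca1, chr4:53159896-53160145, minus strand: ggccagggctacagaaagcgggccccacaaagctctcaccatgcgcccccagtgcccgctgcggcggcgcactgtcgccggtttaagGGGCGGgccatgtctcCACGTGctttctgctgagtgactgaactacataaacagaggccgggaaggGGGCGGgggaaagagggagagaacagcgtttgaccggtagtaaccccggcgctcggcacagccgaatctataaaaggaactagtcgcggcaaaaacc

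The last 11 bases of the Abcf1 stretch lie within its GENCODE transcript. The stretch of Abcc4 holds 1 E-box and 3 GC boxes, those of Abcf1 and Abca1 hold 1 E-box and 2 GC boxes each, and that of Abcc5 holds none of the 3 motifs. All 4 are rich in G and C, at 61.6% for Abca1 to 72% for Abcc4. The median was 52.4% over the 32536 distinct stretches of the same length used as background, which leave out chromosome 18. Such a stretch was found for 23 of the 33 members and for 12 of the 17 tested. An E-box was in 3 of these 12, Abcc4, Abcf1 and Abca1, beside 6.04% of all stretches, and a GC box was in 7 beside 33%. The CCAAT box was in 2 (33.8% of all stretches), the TATA box TATAAA in 2 (12.3%), the antioxidant response element TGACNNNGC in 1, Abcc4 (10.2%), and the LXR element, a pair of AGGTCA repeats with 4 bases between them, in none (0.0154%). The hypoxia response core ACGTG lies within the E-box and was found in the same 3 members (16.7%). All stretches include those of genes not expressed in these cells and can include several of 1 gene, while each member has 1. The shares are therefore not matched to the members, and a match describes letters only.

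Genes that act beside the ABC proteins, together with Tap1, Tap2 and Cftr, were read from 9 lists. Of the 149 tested genes in them 20 were higher and 43 lower, to be read beside the 10.7% and 21.9% of all genes tested. Of 17 tested genes of other drug transport, 2 were higher and 6 lower (median log2 fold change -0.10, equal to that of all genes). Slc29a1, the nucleoside transporter ENT1, fell from a mean of 28.1 FPKM to 15.9 FPKM (-0.81, with a standard error of 0.0978, limma adjusted p = 0.0100), on chromosome 17 with its median of -0.38. The organic anion transporter Slco4a1 fell from 9.73 to 3.81 FPKM (-1.25, with a standard error of 0.0931, limma adjusted p = 0.00537). Of 14 tested topoisomerase and histone deacetylase genes, the families of the study's drug targets, 3 were higher and 1 lower (median 0.19). Not every gene of these families need be a target of these drugs. Top1, the target of camptothecin, was at 14.1 and 13.9 FPKM in Control and 12.2 and 10.2 FPKM in iRhom KO (-0.31, limma adjusted p = 0.0821). Top2a, a target of doxorubicin, was at 98.1 and 93.0 FPKM in Control and 106.2 and 106.9 FPKM in iRhom KO (0.16, limma adjusted p = 0.117). Neither of these was called, and both are given as the drugs' targets though outside the rule for named genes. Top2b, the other type II topoisomerase gene, was called higher, at 15.2 and 14.1 FPKM in Control and 18.6 and 17.6 FPKM in iRhom KO (0.30, limma adjusted p = 0.0456). The histone deacetylase genes Hdac7 (0.31) and Hdac5 (0.38) were called higher and Hdac10 (-0.46) lower. With 1 library left out, Top2b, Hdac7 and Hdac5 were called in 0 of 4 fits and Hdac10 in 2.

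Of 17 tested transcription factors known to act on ABC genes, 3 were higher and 3 lower (median -0.11). Jun rose from 11.1 to 20.4 FPKM (0.85, with a standard error of 0.0643, limma adjusted p = 0.00547). The LXR gene Nr1h2, whose protein induces Abca1, averaged 4.56 FPKM in Control and 3.61 FPKM in iRhom KO (-0.30, limma adjusted p = 0.128), and Nfe2l2, the gene of NRF2, at 49.3 and 51.9 FPKM (0.07, limma adjusted p = 0.421); both were chosen after their values were seen.

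Of 16 tested genes of cholesterol handling, 4 were higher and 4 lower (median 0.10). The phospholipid transfer protein Pltp rose from 0.524 to 1.48 FPKM (0.95, with a standard error of 0.0993, limma adjusted p = 0.00809). Insig1, which holds back cholesterol synthesis in the endoplasmic reticulum, rose from 13.2 and 12.5 FPKM to 18.8 and 19.1 FPKM (0.54, with a standard error of 0.0636, limma adjusted p = 0.00965). Nceh1, a cholesterol ester hydrolase, fell from 13.5 to 8.02 FPKM (-0.71, with a standard error of 0.0651, limma adjusted p = 0.00654). Pltp was tested only through its level in iRhom KO.

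Of 23 tested genes of the peroxisome, 2 were higher and 5 lower (median 0.07). Decr2, a reductase of peroxisomal beta-oxidation, fell from 2.76 to 1.46 FPKM (-0.74, limma adjusted p = 0.0163), on chromosome 17 with its median of -0.38. Of 25 tested genes of heme and iron-sulfur synthesis, 4 were higher and 6 lower (median -0.14). Within heme synthesis Alas1, the rate-limiting enzyme, fell from 6.68 to 4.26 FPKM (-0.59, limma adjusted p = 0.0141), while the later enzymes Alad and Cpox rose, by 0.69 and 0.56 on the log2 scale (limma adjusted p = 0.0107 and 0.0108).

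Of 19 tested genes of ribosome recycling and the integrated stress response, none was higher and 6 were lower (median -0.16). Impact, an inhibitor of the stress kinase GCN2, fell from 26.6 to 13.4 FPKM (-0.97, with a standard error of 0.0819, limma adjusted p = 0.00587). Of 16 tested genes of the lysosome and of cobalamin handling, 12 were lower and 1 higher (median -0.61), while the lysosomal member Abcd4 was not called. The lysosomal membrane protein Lamp1 fell from 491.4 to 175.5 FPKM (-1.48, with a standard error of 0.0600, limma adjusted p = 0.00290). Over all lists, the rule for named genes picks 40 called genes, of which 19 kept the call with each library left out, 13 in some of these fits and 8 in none. Apart from the topoisomerase and histone deacetylase genes, the list genes given here as rising or falling were taken from those 19.

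**Figure D4:**
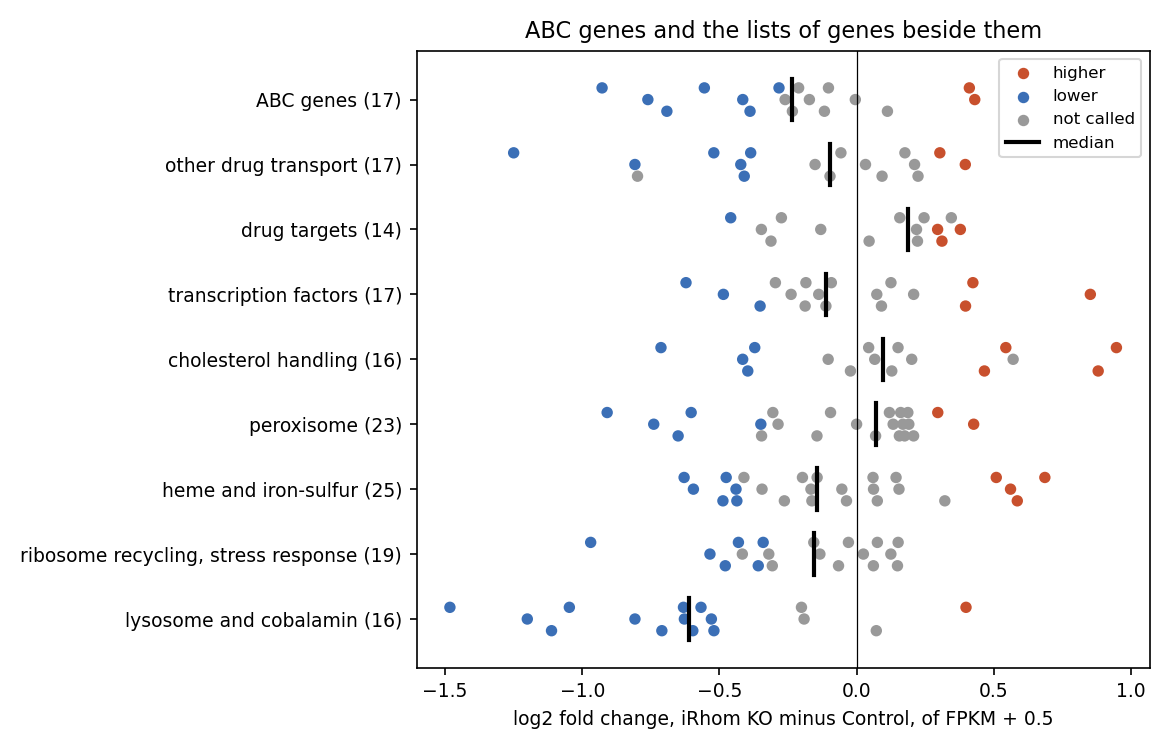
Log2 fold change of iRhom KO over Control (horizontal axis, FPKM plus 0.5) for each tested gene of the ABC family and of 8 lists of genes that act beside it, with points for genes coloured by the limma call and black lines for medians. The medians run from -0.61 for the lysosome and cobalamin list to 0.19 for the drug targets, with the ABC genes at -0.23. Those labelled drug targets are all tested topoisomerase and histone deacetylase genes.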

How the data were processed

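RNA of CT26 cells was sequenced in 4 libraries, 2 Control and 2 iRhom KO. Per the labels, the authors aligned reads to GRCm38 with HISAT2 and quantified them with StringTie (versions not given in the sources used here), and deposited FPKM per gene and library, with no stated scaling between libraries. The deposited fold ratio of group means and its log2 are the authors' own comparison and were not used. The value columns carry CON or KO and a library tag but no replicate number. Among 21724 rows, 19 had no gene name and were dropped, and 54 rows that share 26 symbols were summed by symbol. None of the symbols was listed at 0 throughout a group. FPKM hide the depth, so it was estimated from the spacing of low values, and counting error could not be given per value.

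A gene was tested where either group averaged 1 FPKM or more, on log2 of FPKM plus 0.5 with limma 3.58.1 in R 4.3.3 (trend, no robust fit), Benjamini-Hochberg adjusted over all genes tested, at 0.05. The pseudocount makes changes of low genes look smaller. The code was tested on simulated data. Some members and list genes, though counted, are not reported here. A permutation test of 2 libraries against 2 reaches 0.333 at the lowest and was not used. Positions came from GENCODE (GRCm38) for 21066 symbols, and promoter windows from RefSeq. Values per library are given for members that passed, pumps at 1 FPKM or more and further members by role. Of each list at most 3 genes a direction by p were picked. Outside the topoisomerase and histone deacetylase genes, those whose call was lost with a library left out were then dropped. Members under 1 FPKM other than pumps, and list genes that were not called, were named after their values were seen. The members, role groups and lists were chosen with earlier results of these data known. Alternatives were pseudocounts of 0.1 and 1, no filter or 5 FPKM, scaling by trimmed means (30% trimmed by log ratio, 5% by level), quantile normalization, robust fitting, limma's treat at 1.5-fold, the highest row of a shared symbol, each library left out and, added after seeing the data, chromosome medians subtracted.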

Additional observations from a re-analysis of the deposited data

How the results depend on the processing

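The direction of all 9 called ABC genes was the same under each alternative in which they were tested, and the counts of expressed members stayed within 14 to 18 with thresholds of 0.5 to 2 FPKM. The members called higher went from 2 to 0 without the filter on low values. With the filter at 5 FPKM (which Abca1 does not reach) they were also 0. Neither of the 2 was called with any 1 library left out. Limma gave an unadjusted p under 0.05 to 12 of 33 members without the filter and to 7 of 11 at 5 FPKM. Of all genes, 6350 of 21677 and 3165 of 6174 had such a p in these limma fits. The members called lower were 7 as reported, 4 with quantile normalization, 2 with chromosome medians subtracted (added after seeing the data) and 4 to 6 with a library left out. With limma's treat at a minimum fold of 1.5 none was higher or lower, with 2 at an unadjusted p under 0.05, while of all genes 60 were higher and 84 lower and of the list genes 0 and 2. Of all genes 1096 were higher and 2254 lower as reported, 1646 and 1696 with trimmed mean scaling, and 1605 and 1553 with quantile normalization; 727 were higher with the filter at 5 FPKM, and 1140 lower with chromosome medians subtracted. With a library left out 561 to 745 genes were higher and 1096 to 1713 lower. Of the list genes 20 were higher and 43 lower as reported, 12 higher without the filter, 31 higher with trimmed mean scaling, and 7 to 11 higher and 26 to 39 lower with a library left out. Signs turned for Abcb10 with quantile normalization (0.0161) and chromosome medians subtracted (0.0450), for Abcc1 with trimmed mean scaling (0.0876), quantile normalization (0.12) and a library left out (-0.0911 to 0.0822), and for Tap2 with a library left out (-0.0085 to 0.0879), none of them called. The cause of these shifts was not tested. With 1 library left in a group, it is assumed to vary like the other group. No paired analysis was possible because the value columns carry no replicate number, so that which libraries would pair is not known.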
